A study of Homo sapiens with 16 samples.

Results

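SH-SY5Y is an established human neuroblastoma cell line whose cells resemble immature sympathetic neuroblasts and extend neurites when they are differentiated. The comparison described here set SH-SY5Y cells that had been differentiated on 3 conducting films, without electrical stimulation, against untreated SH-SY5Y cells on culture plates, over all genes. The members were chosen by their labels alone and were 8 of the 16 polyadenylated RNA libraries of the study: 2 on P(rGO), a nanocomposite of a polymer with reduced graphene oxide, 2 on PEDOT:PSS, a conducting polymer blend, 2 on indium tin oxide (ITO), and 2 of untreated cells. Of the other libraries, 2 came from cells differentiated on plates without a film and are used below to set the film values beside differentiation on plates, and 6 came from electrically stimulated films and entered only the estimate of the spread between libraries.

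Films carried poly-L-lysine with laminin as a coat, and no coat was named for the plates. Films and plates went through the same steps. The serum share fell to 5% at day 2, reached 2.5% at day 3 and ended at 1% at day 5. Cells received 10 µM retinoic acid between days 3 and 6 and, for the next 4 days, 50 ng/mL of brain-derived neurotrophic factor (BDNF). By their label the untreated cells were given none of these steps. Film cells and untreated cells therefore differed in serum, retinoic acid, BDNF, coat, film and time in culture at once, and the parts of these factors in any difference below cannot be told apart. The labels numbered each pair of libraries 1 and 2 without saying whether they came from separate cultures, so p-values cover no more than the spread seen between these particular libraries, and that spread may be technical. SH-SY5Y is 1 line, and nothing here bears on other neuroblastoma lines or on neurons.

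Retinoic acid enters the nucleus and binds retinoic acid receptors (RARs), which sit with retinoid X receptors (RXRs) on paired copies of a short DNA element and switch on nearby genes, among them the enzymes that break retinoic acid down. In SH-SY5Y cells a retinoic acid step is commonly followed by BDNF, the ligand of the receptor tyrosine kinase TrkB, which signals through the ERK cascade and supports survival and neurite growth. Differentiated cells leave the cell cycle and take up parts of a neuronal programme, including the neurite cytoskeleton, ion channels and the machinery of vesicle release. Neuroblastoma lines also hold 2 cell states set by different transcription factors, an adrenergic state with HAND2 and GATA3 and a mesenchymal state with vimentin, fibronectin and YAP1.

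The 2 untreated libraries lay much further apart than the film libraries. The biological coefficient of variation, edgeR's estimate of the relative spread of a gene between replicates, was 36.2% between the untreated libraries, 18.1% between the plate libraries and 9.92% over the 6 film libraries taken as 1 group. Among genes with at least 1 CPM, a gene's counts scaled to the library's total by the usual factor, 2409 of 14702 (16.4%) differed over 2-fold between the untreated libraries, against 0.898% to 2.07% within each film. Principal components of the 2000 most variable genes placed film libraries at 18.1 to 30.1, plate libraries at -6.5 and 15.9 and untreated libraries at -66.7 and -88 along the first axis (63.1% of the variance). Along the second (14.7%), films took values of -18.6 to -3.5 and plates of 40.9 and 31.8. Each library held 15600410 to 20851000 counts on genes.

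**Figure D1:**
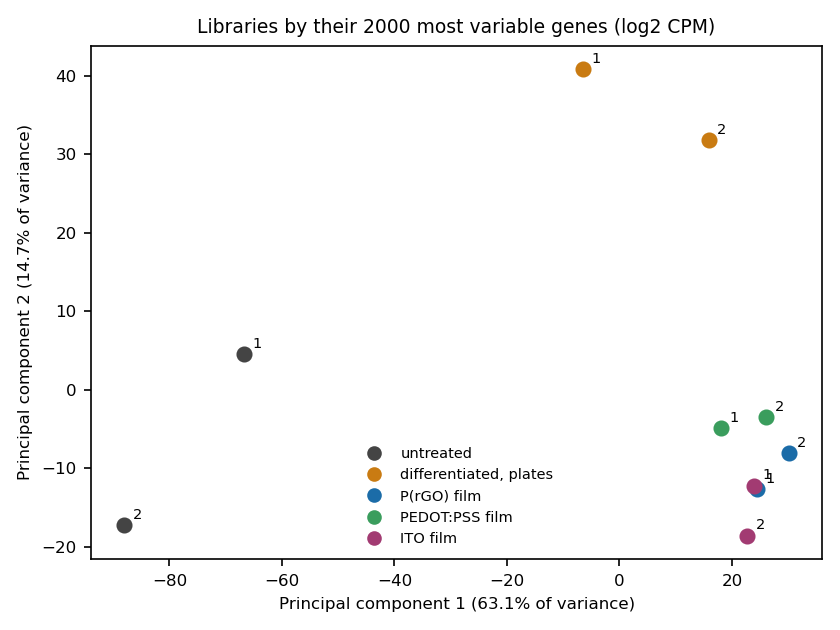
First principal component (x axis, 63.1% of the variance) against the second (y axis, 14.7%) for 10 libraries, computed from log2 CPM of the 2000 most variable genes; each point is 1 library, and colour gives the group. The 6 film libraries form 1 compact cloud at the right, the 2 plate libraries stand above them, and the 2 untreated libraries stand at the left and apart from each other.

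The libraries carried the markers of the labelled cell type. Of 15 neuroblastoma markers, 14 had enough counts to be tested, and their summed level was 9556 and 8918 CPM in the untreated libraries and 7631 to 9031 CPM in the film libraries. The remaining one, CHGA, was listed with a count of 0 in all 8 libraries; the strand setting and gene models of the counting are unknown here, so this 0 is no measure of absent expression. Endothelial and immune markers were scarce, and fibroblast markers were not. Of 10 endothelial markers 8 had too few counts to be tested, as had 8 of 9 immune markers. In the untreated and film libraries the 2 tested endothelial markers summed to between 0.8881 and 2.298 CPM. The 1 tested immune marker stayed between 0.7659 and 2.621 CPM in the same libraries. Of 13 Schwann cell and glia markers, 4 were tested, with a sum of 35.86 and 36.13 CPM in untreated cells and 13.34 to 19.27 CPM on films, and 4 of the 13 had no count in any of the 8 libraries. Of 13 fibroblast markers, 10 were tested and summed to 648 and 435 CPM in untreated cells and to 233 to 347 CPM on films. The 4 tested of 9 epithelial markers summed to 19.82 and 17.12 CPM in untreated cells and to 10.76 to 16.25 CPM on films. In bulk RNA, fewer cells of a type and less RNA per cell cannot be told apart.

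Expression moved broadly between untreated cells and film cells. Of 18081 genes tested with edgeR's quasi-likelihood test, 8092 (44.8%) passed a Benjamini-Hochberg adjusted p of 0.05 between the mean of the 3 films and untreated cells: 3692 were higher (20.4%) and 4400 lower (24.3%) on films, and the median log2 fold change over all genes was -0.01. The shares read below against those of each gene list are these 20.4% and 24.3%. A test against a change of at least 2-fold (edgeR's glmTreat) passed 1202 genes (6.65%), with 516 (2.85%) higher and 686 (3.79%) lower. The count was sensitive to the untreated libraries. Without untreated replicate 2 it fell to 3035 higher (16.8%) and 3662 lower (20.3%), and without replicate 1 it was 4657 (25.8%) and 4653 (25.7%). When limma gave each group its own weight, which the untreated group's wide spread set to 0.201 against 1.26 to 2.11 for the films, 796 genes (4.4%) were higher and 1699 (9.4%) lower. Under all 15 alternative settings 764 genes (4.23%) were called higher and 1610 (8.9%) lower, and these are named below as the genes that held under every setting.

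Each film taken alone gave fewer calls with fewer libraries. On P(rGO) 6442 genes passed (35.6%): 3035 genes (16.8%) were higher and 3407 (18.8%) lower than in untreated cells. PEDOT:PSS gave 5673 calls (31.4%), 2636 (14.6%) higher and 3037 (16.8%) lower, and ITO gave 6320 (35.0%), 2917 (16.1%) higher and 3403 (18.8%) lower. No gene passed a joint test for a difference among the 3 films (edgeR, 0%), 239 had an unadjusted p under 0.05, and DESeq2 called 1. These 239 are fewer than a share of 0.05 of the 18081 genes tested. The test took its spread from all 8 groups, among them the untreated pair at 36.2%, against 9.92% over the film libraries. With only the films in the fit 7 genes passed, and 85 with no low-count filter. The 0 therefore does not show that the films are alike. With only the groups compared in the fit, P(rGO) gave 1580 calls, PEDOT:PSS 751 and ITO 1365, and voom weights gave 2499, 1958 and 2054 in that order. All 3 films shared the untreated libraries, so their agreement in direction is not independent, and the films are described together below.

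**Figure D2:**
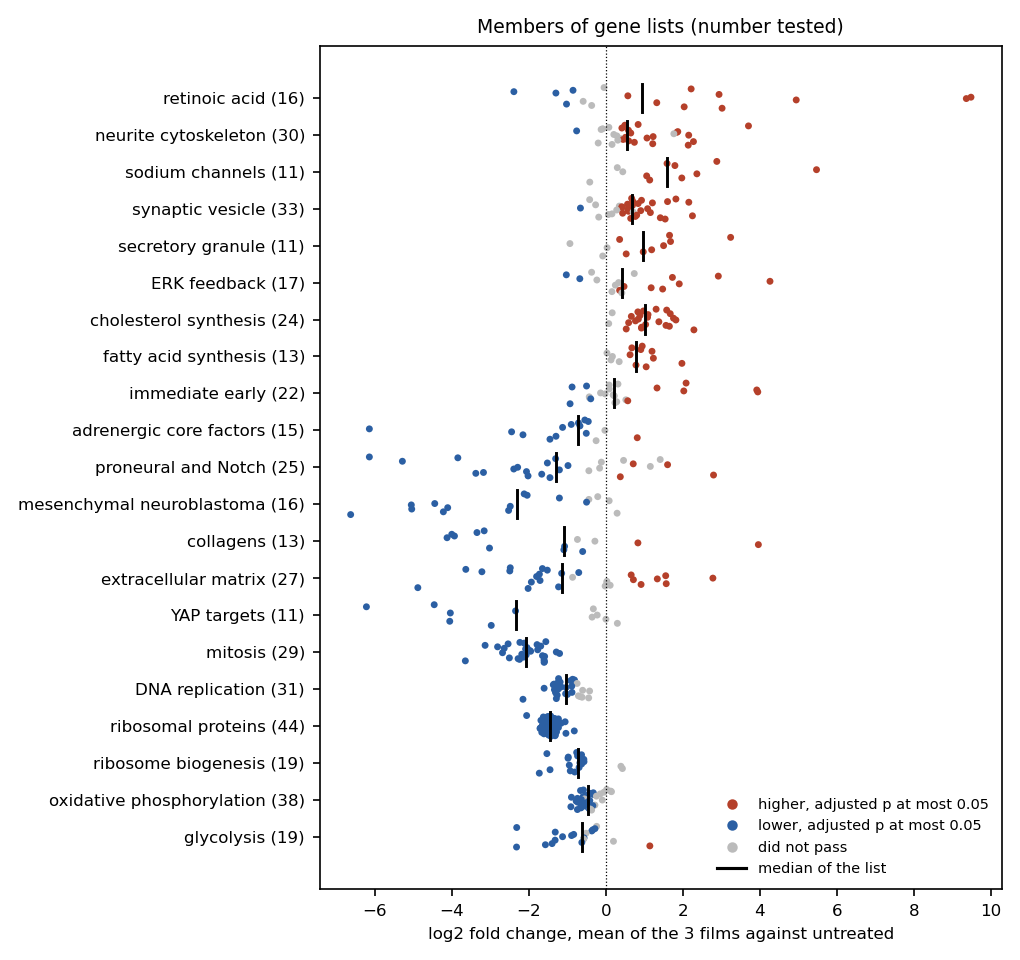
Log2 fold change of the mean of the 3 films over untreated cells (x axis) for the tested members of gene lists (y axis, number tested in brackets); each dot is 1 gene and each bar the list's median. Mitosis and ribosomal protein genes and most mesenchymal genes lie left of 0, with medians of -2.07, -1.45 and -2.30, while sodium channel, cholesterol synthesis and retinoic acid genes have medians of 1.59, 1.01 and 0.95; the median over all genes is -0.01.

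Genes of the retinoic acid pathway were among those that moved furthest. Of 21 genes listed, 16 were tested, 9 rose and 4 fell on films, with a median log2 fold change of 0.95. The list's receptors diverged. RARB, the RAR gene that retinoic acid is known to induce, measured 17.6 and 24.1 CPM in untreated cells and from 76 through a median of 98.2 to 117 CPM on films. Every film library lay above both untreated libraries, and the log2 fold change was 2.22 (SE 0.19, adjusted p = 2.62e-06). RXRA, which encodes a partner receptor of the RARs, went the other way: it measured 52.9 and 25 CPM in untreated cells and from 6.02 through a median of 7.63 to 8.50 CPM on films, a log2 fold change of -2.38 (SE 0.20, adjusted p = 1.82e-06) with no overlap of the groups.

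Of the same list, 4 genes for enzymes and carriers that rose are given first. CYP26B1 (chr2:72129238-72148038, minus strand; GRCh38), a cytochrome P450 that oxidises retinoic acid, measured 0.355 and 3.27 CPM in untreated cells and from 483 through a median of 1323 to 1559 CPM on films. Both untreated libraries were near 0 and far below every film library, so the log2 fold change of 9.36 (SE 1.08, adjusted p = 1.72e-05) is large and imprecise. Its relative CYP26A1 held 2 counts over both untreated libraries and 5415 over the 6 film libraries, a ratio of 879 after scaling to library totals (95% interval 243 to 7260, counting error only). DHRS3, which reduces retinal back to retinol and is a known retinoic acid target, rose from 4.73 and 7.20 CPM to values of 125 to 221 CPM (median 194 CPM) on films (log2 change 4.94 ± 0.43 SE, adjusted p = 2.45e-06). CRABP2, the carrier that hands retinoic acid to its receptors, measured 181 and 170.0 CPM in untreated cells and from 1064 through a median of 1376 to 1565 CPM on films (log2 change 2.94 ± 0.29 SE, adjusted p = 5.46e-06). In all 4 of these genes no film library overlapped the untreated ones. With a weight per group the adjusted p was 0.309 for CYP26B1 and 0.704 for CYP26A1, which then no longer passed. Of the other carriers and enzymes, ALDH1A2, which makes retinoic acid, rose (log2 change 1.32 ± 0.34 SE, adjusted p = 0.00591). The carrier CRABP1 fell (log2 change -1.29 ± 0.24 SE, adjusted p = 0.00062), as did ALDH1A3, which also makes retinoic acid (log2 change -1.02 ± 0.24 SE, adjusted p = 0.00404), and the retinol dehydrogenase RDH10 did not pass (log2 change -0.59 ± 0.29 SE, adjusted p = 0.113). With a weight per group ALDH1A2 (adjusted p = 0.311) and ALDH1A3 (adjusted p = 0.114) did not pass, and ALDH1A3 did not pass without untreated replicate 1 (adjusted p = 0.0803). On plates without a film, CYP26B1 measured 212 and 1417 CPM and DHRS3 80.7 and 216 CPM. In both, plate replicate 2 lay inside the film range and replicate 1 below it, and films and plates did not pass as different for either (adjusted p = 0.656 and adjusted p = 0.604).

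RARB carries the response element through which it is known to answer retinoic acid, and its promoter is printed because its transcript rose. Promoters of 250 bases before the annotated start were taken from RefSeq's GRCh38.p14 table and searched on both strands for half-sites in direct repeat with 1, 2 or 5 bases between them. A half-site was the hexamer AGGTCA, the variant AGTTCA, or one of the variants that open with G, which are GGTTCA and also GGGTCA, in any pair. Of 18 listed retinoic acid genes with a promoter in the table, RARB had such a pair (5.56%), with 5 bases between the copies, against 55 of 27305 promoters (0.201%) with any of the 3 spacings and 19 (0.0696%) with 5. The copies stand 53 to 37 bases before the start on the plus strand of chr3:25428170-25428262, and capitals mark the paired half-sites with their spacer, 5′ to 3′.
RARB: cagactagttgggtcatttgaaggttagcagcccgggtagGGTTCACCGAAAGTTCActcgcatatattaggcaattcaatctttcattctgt
A match describes the letters in this window and is not a measured binding site.

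Genes of the neurotrophin and GDNF pathways shared no direction. Of the 11 tested neurotrophin genes 3 rose and 2 fell, and of the 8 tested GDNF receptor genes 3 rose and 1 fell. NTRK2 (chr9:84668551-85027070, plus strand), which encodes TrkB, measured 17.3 and 6.23 CPM in untreated cells, from 327 through a median of 366 to 464 CPM on films and 392 and 571 CPM on plates. All differentiated libraries stood far above both untreated ones, with a log2 fold change of 5.04 (SE 0.42, adjusted p = 1.82e-06) for films. RET, the signalling receptor for GDNF family ligands, rose from 704 and 652 CPM to values of 2389 to 3231 CPM (median 2816 CPM) on films (log2 change 2.04 ± 0.28 SE, adjusted p = 6.28e-05). GFRA2, which presents neurturin to RET, fell, with 16.2 and 1.82 CPM in untreated cells and 0.172 to 0.651 CPM on films (log2 change -4.44 ± 0.53 SE, adjusted p = 2.36e-05).

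Feedback genes of the ERK cascade, which TrkB and RET activate, rose in part. Of 17 tested phosphatases and inhibitors, 8 rose and 2 fell (median 0.42), and 5 of the rises held under every setting. SPRY1, a Sprouty inhibitor of receptor signalling, measured 6.39 and 6.54 CPM in untreated cells, 14.2 and 47.6 CPM on plates and from 107 through a median of 119 to 159 CPM on films. The film libraries lay above both other groups, and the log2 fold change was 4.26 (SE 0.40, adjusted p = 4.21e-06) against untreated cells. DUSP6, which dephosphorylates ERK, also rose (log2 fold change 1.73 ± 0.15 SE, adjusted p = 2.88e-06). Its relative DUSP5 rose as well (log2 change 2.92 ± 0.32 SE, adjusted p = 1.14e-05), with an adjusted p of 0.052 under a weight per group. DUSP4, another such phosphatase, fell (log2 change -1.02 ± 0.22 SE, adjusted p = 0.00223) but did not pass without untreated replicate 2 (adjusted p = 0.293). VGF, a secreted neuropeptide precursor known to answer neurotrophins, measured 994 and 2270.1 CPM in untreated cells and from 4685 through a median of 5184 to 6085 CPM on films (log2 change 1.68 ± 0.38 SE, adjusted p = 0.00257). With a weight per group VGF's adjusted p was 0.0534. Neuronal nitric oxide synthase, NOS1, rose from 12.7 and 4.66 CPM to values of 254 to 531 CPM (median 381 CPM) on films (log2 change 5.48 ± 0.60 SE, adjusted p = 1.15e-05), with 342 and 892 CPM on plates, and its adjusted p with a weight per group was 0.0773.

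Among 22 tested immediate early genes, which encode short-lived factors that follow such signals, 6 rose and 4 fell, beside 20.4% and 24.3% of all genes. Under every setting 2 of the rises and 1 of the falls held. That fall was SRF, with log2 fold changes of -1.261 to -0.483 over the alternatives. EGR1 measured 7.34 and 21.8 CPM in untreated cells, 17.4 and 38.3 CPM on plates and from 179 through a median of 218 to 274 CPM on films. The film range did not touch the other groups, and the log2 fold change was 3.92 (SE 0.54, adjusted p = 7.33e-05). FOS rose with it (log2 change 2.08 ± 0.53 SE, adjusted p = 0.00559) but did not pass without untreated replicate 1 (adjusted p = 0.0794) or with a weight per group (adjusted p = 0.258). EGR3 had a log2 fold change of 3.95 (SE 0.50, adjusted p = 3.37e-05), and with a weight per group its adjusted p was 0.0779.

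Cytoskeletal genes of growing neurites rose on films. Of 30 tested, 19 rose, 1 fell and 10 did not pass (median 0.55), and 11 of the rises held under every setting. DPYSL3 (chr5:147390811-147510056, minus strand), a collapsin response mediator protein of the growth cone, measured 138 and 107 CPM in untreated cells and from 1186 through a median of 1648 to 1866 CPM on films. No film library came near the untreated ones, and the log2 fold change was 3.70 (SE 0.26, adjusted p = 5.4e-07). GAP43, a growth cone protein, had a log2 fold change of 1.87 (SE 0.22, adjusted p = 2.01e-05), MAP1B, which stabilises axonal microtubules, 1.84 (SE 0.25, adjusted p = 6.43e-05), and the tubulin TUBB2A 2.15 (SE 0.22, adjusted p = 6.3e-06). ENC1, an actin-binding protein of neurons, had a log2 fold change of 2.28 (SE 0.33, adjusted p = 9.73e-05), which did not pass with a weight per group (adjusted p = 0.102). STMN2, a stathmin that is a common neuronal marker, did not pass (log2 fold change -0.12 ± 0.13 SE, adjusted p = 0.477). The 31 tested axon guidance genes leaned the other way, with 4 higher, 17 lower and a median of -0.70, and 11 of the falls held under every setting. NRP1, a semaphorin co-receptor, fell (log2 change -6.27 ± 0.64 SE, adjusted p = 7.45e-06), from 17.8 and 4.66 CPM to values of 0 to 0.815 CPM on films.

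**Figure D3:**
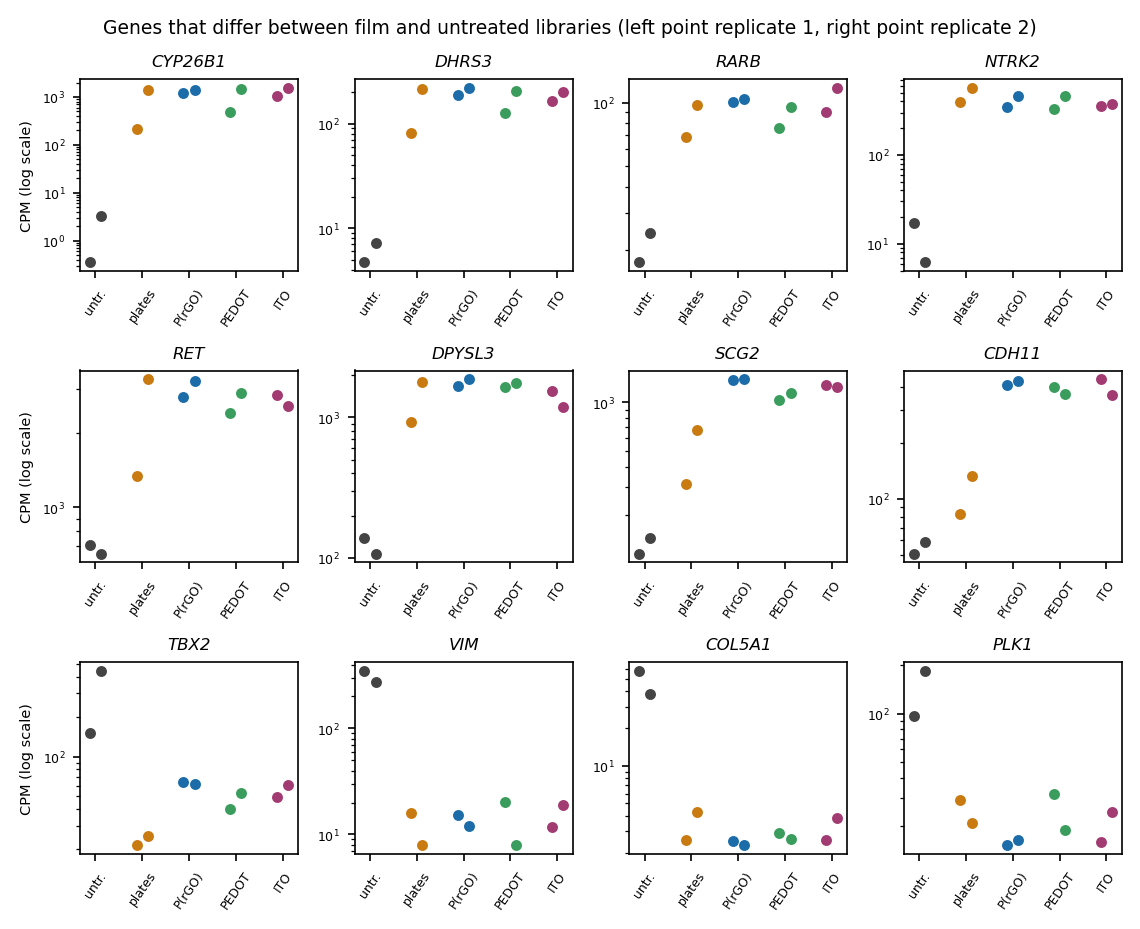
CPM (y axis, log scale) of 12 genes in each library (points) of untreated cells, cells differentiated on plates and cells on the 3 films; each panel is 1 gene. The film points stand above the untreated points for CYP26B1, DHRS3, RARB, NTRK2, RET, DPYSL3, SCG2 and CDH11 and below them for TBX2, VIM, COL5A1 and PLK1.

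Sodium channel and vesicle release genes rose. Of 11 tested sodium channel genes 8 rose and 3 did not pass (median 1.59), and 4 of the rises held under every setting. SCN9A measured 35.9 and 16.9 CPM in untreated cells and from 123 through a median of 134 to 156 CPM on films (log2 change 2.36 ± 0.23 SE, adjusted p = 5.66e-06). SCN3A (1.79) and SCN2A (1.59) also rose on the log2 scale. Of 17 tested calcium channel genes 8 rose and 1 fell, and of 17 tested potassium channel genes 7 rose and 3 fell.

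Of 33 synaptic vesicle genes, 24 rose, 1 fell and 8 did not pass (median 0.69), and 11 of the rises held under every setting. SYT4, a synaptotagmin that responds to activity, had a log2 fold change of 1.60 (SE 0.25, adjusted p = 0.000167), and SYN2, a synapsin that tethers vesicles, 1.82 (SE 0.14, adjusted p = 1.36e-06). The member that fell was RAB3A, a vesicle GTPase (log2 change -0.66 ± 0.17 SE, adjusted p = 0.00544), and this fall did not pass without untreated replicate 2 (adjusted p = 0.334) or with a weight per group (adjusted p = 0.108). Genes of dense-core granules, the vesicles that store catecholamines and peptides, rose in 8 of 11 tested and the other 3 did not pass (median 0.97), and 2 of those rises held under every setting. SCG2, which encodes the granule protein secretogranin II, measured 116 and 145 CPM in untreated cells, 311 and 676 CPM on plates and from 1035 through a median of 1256 to 1385 CPM on films. Film libraries were above both other groups, and the log2 fold change was 3.24 (SE 0.26, adjusted p = 1.37e-06) against untreated cells and 1.32 (SE 0.23, adjusted p = 0.00312) against plates.

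Transmitter genes did not move as 1 group. Of 13 tested catecholamine genes 2 rose and 4 fell. DBH, which turns dopamine into noradrenaline, measured 1747 and 871 CPM in untreated cells, 1058 and 905 CPM on plates and from 405 through a median of 502 to 795 CPM on films, and fell by 1.31 on the log2 scale (adjusted p = 0.000159). MAOB, which breaks amines down, rose from 15 and 11.1 CPM to values of 91.3 to 132 CPM (median 122 CPM) on films (log2 change 3.15 ± 0.22 SE, adjusted p = 4.7e-07). Of 15 tested cholinergic genes 5 rose and 3 fell. ACHE, acetylcholinesterase, rose (log2 change 1.62 ± 0.27 SE, adjusted p = 0.000322), while the muscarinic receptor gene CHRM2 fell from 23.9 and 18.8 CPM to values of 0.474 to 0.973 CPM on films (log2 change -4.84 ± 0.27 SE, adjusted p = 2.62e-07). The choline transporter gene SLC5A7 had 80 counts over the untreated libraries and 0 over the film libraries, at least 82.1-fold lower when the floor is 3 counts over the group. Among 8 tested neuropeptide genes 3 rose and 3 fell (median -0.01). Under every setting 0 of these rises held and 1 fall did, that of NMU (log2 fold changes of -2.349 to -1.676 over the alternatives). CALCA, which encodes calcitonin and the peptide CGRP, had 0 counts in untreated cells and 348 on films, at least 37.7-fold higher by the same floor, and its adjusted p with a weight per group was 0.285.

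Transcription factors of the neuroblast state fell. Of 15 adrenergic core factors, 12 fell, 1 rose and 2 did not pass (median -0.71), and 8 of the falls held under every setting. TBX2 (chr17:61399896-61409466, plus strand), a T-box factor of the adrenergic set, measured 151 and 444 CPM in the untreated libraries, 21.5 and 25 CPM on plates and from 40.5 through a median of 57.2 to 63.8 CPM on films. Both untreated libraries lay above every film library and the plate libraries were the lowest, and the log2 fold change for films was -2.44 (SE 0.25, adjusted p = 6.56e-06). GATA3 (log2 change -1.12 ± 0.12 SE, adjusted p = 8.63e-06) and HAND2 (log2 change -0.90 ± 0.12 SE, adjusted p = 6.74e-05), which specify sympathetic neurons, also fell. ISL1, another sympathetic factor, did not pass (log2 fold change -0.02 ± 0.13 SE, adjusted p = 0.903). The riser was KLF7 (log2 change 0.82 ± 0.13 SE, adjusted p = 0.000199), a factor linked to axon growth.

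Of 25 tested proneural and Notch pathway genes 15 fell and 4 rose (median -1.30). The receptor NOTCH1 (log2 change -2.39 ± 0.35 SE, adjusted p = 0.000125) and its ligand JAG1 (log2 change -2.29 ± 0.20 SE, adjusted p = 2.92e-06) fell, while HEY1, a target of the pathway, rose (log2 change 1.60 ± 0.22 SE, adjusted p = 6.09e-05). ID4, an inhibitor of proneural factors, rose from 3.67 and 2.84 CPM to values of 15.7 to 27.1 CPM (median 24.1 CPM) on films (log2 change 2.80 ± 0.27 SE, adjusted p = 5.32e-06). Among 14 tested neuroblastoma drivers 6 fell and 2 rose. MYC fell by 3.10 and MYCN by 2.12 on the log2 scale (adjusted p = 2.67e-05 and adjusted p = 2.77e-05), and TERT, the catalytic subunit of telomerase, by 2.33 (adjusted p = 3.32e-05).

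Genes of the mesenchymal state fell together. Of 16 tested, 12 fell and 4 did not pass (median -2.30), and 10 of the falls held under every setting. VIM, the intermediate filament vimentin, measured 349.9 and 272 CPM in untreated cells, 16.1 and 7.94 CPM on plates and from 8.01 through a median of 13.6 to 20.2 CPM on films. Every differentiated library was far below both untreated ones, and the log2 fold change was -4.44 (SE 0.38, adjusted p = 2.45e-06). FN1, fibronectin, measured 112 and 115 CPM in untreated cells and from 16 through a median of 17.2 to 36.8 CPM on films (log2 change -2.48 ± 0.22 SE, adjusted p = 2.66e-06). CD44, a hyaluronan receptor, had a log2 fold change of -5.05 (SE 0.52, adjusted p = 7.18e-06), and YAP1 and WWTR1, the co-activators of the Hippo pathway, had -4.10 (SE 0.63, adjusted p = 0.000175) and -5.04 (SE 0.56, adjusted p = 1.9e-05). Of 11 tested YAP target genes 6 fell (median -2.34), CCN1 among them (log2 change -4.45 ± 0.48 SE, adjusted p = 1.01e-05), and each of these falls held under every setting. Fibroblast markers fell in 6 of 10 tested, and 2 rose. With a weight per group 1 of the 10 passed as lower and 0 as higher. Fibroblast markers overlap in function with the mesenchymal genes, their summed level is given above, and their part in the result was not tested.

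Matrix and adhesion genes changed in both directions. Of 13 tested collagen genes 9 fell and 2 rose (median -1.09), and 5 of the falls and 0 of the rises held under every setting. The 27 tested extracellular matrix genes had 15 falls and 7 rises (median -1.14), of which 11 falls and 0 rises held under every setting. COL5A1, a fibrillar collagen, measured 58.2 and 37.8 CPM in untreated cells and from 2.32 through a median of 2.57 to 3.79 CPM on films, with no overlap (log2 change -4.12 ± 0.24 SE, adjusted p = 2.62e-07). COL4A1, of basement membranes, fell by 4.00 on the log2 scale (adjusted p = 1.07e-06). COL3A1 measured 288 and 110.5 CPM in untreated cells and from 9.62 through a median of 12.7 to 90.2 CPM on films; ITO replicate 2 held the highest film value, the other film libraries lay at 14 CPM or below. Its fall (log2 change -3.34 ± 0.50 SE, adjusted p = 0.000146) did not pass with a weight per group (adjusted p = 0.118). LOX, which cross-links collagen, fell from 13.4 and 11.2 CPM to values of 0.175 to 0.541 CPM on films (log2 change -4.88 ± 0.32 SE, adjusted p = 4.55e-07).

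Of 4 tested cadherin genes 2 rose and 2 did not pass. CDH11 (chr16:64943753-65126112, minus strand), a cadherin, measured 50.9 and 58.6 CPM in untreated cells, 83.3 and 132 CPM on plates and from 361 through a median of 405 to 439 CPM on films. The film libraries formed a narrow range above all others, with a log2 fold change of 2.87 (SE 0.19, adjusted p = 4.55e-07) against untreated cells. N-cadherin, CDH2, also rose (log2 change 1.46 ± 0.13 SE, adjusted p = 3.09e-06). Of 21 tested integrin and laminin genes 4 rose and 10 fell. LAMA4, a laminin chain, rose (log2 change 3.25 ± 0.28 SE, adjusted p = 2.16e-06) and ITGB5, an integrin chain that binds vitronectin, fell (log2 change -4.00 ± 0.39 SE, adjusted p = 5.63e-06). The films were coated with laminin, and its part in these values was not tested.

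Mitotic genes fell. All 29 tested were lower on films (median -2.07), all 29 film ranges lay below the untreated ranges, where 24.2% of all genes did, and 24 held under every setting. PLK1, the polo-like kinase that drives entry into mitosis, measured 97.2 and 185 CPM in untreated cells, 28.9 and 20.9 CPM on plates and from 15.3 through a median of 17.8 to 31.6 CPM on films. Film and plate values overlapped and both lay below the untreated values, with a log2 fold change of -2.81 (SE 0.27, adjusted p = 5.18e-06). CDC20, the activator of the anaphase-promoting complex, measured 79 and 198 CPM in untreated cells and from 12.5 through a median of 14.9 to 23.7 CPM on films (log2 change -3.13 ± 0.29 SE, adjusted p = 4.13e-06). CCNB2, a mitotic cyclin, measured 71.4 and 120.0 CPM and from 10.4 through a median of 17.4 to 25.8 CPM (log2 change -2.54 ± 0.28 SE, adjusted p = 1.22e-05). The proliferation antigen MKI67 fell by 1.56 on the log2 scale (adjusted p = 0.000335), which did not pass with a weight per group (adjusted p = 0.138). Between films and plates, where 4.46% of all genes were higher and 3.79% lower, all 29 missed the threshold and their median was -0.18.

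Genes expressed in mitosis are known to share the cell cycle genes homology region (CHR), the hexamer TTTGAA close to the start, and a search of the same 250-base promoters on both strands showed how often the letters occur. TTTGAA was present in 14 of the 25 mitotic genes with a promoter in the table (56%), against 3704 of 27305 promoters (13.6%). CCAAT, the box often found upstream of it, was in 19 of 25 (76%) against 9021 (33%). On either strand the hexamer stands within 30 bases of the start in several of these genes, CENPA, HMMR, ANLN, KIF11, MKI67 and PRC1 among them. PLK1, CCNB2 and BUB1B, where it does so too and whose transcripts fell, are printed as examples. The windows, all on the plus strand, are chr16:23678820-23678888, chr15:59105077-59105145 and chr15:40161006-40161068 in that order, and capitals mark the hexamer, 5′ to 3′.
PLK1: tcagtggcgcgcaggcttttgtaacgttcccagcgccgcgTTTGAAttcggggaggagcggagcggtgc
CCNB2: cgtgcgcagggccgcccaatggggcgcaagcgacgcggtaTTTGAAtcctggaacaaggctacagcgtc
BUB1B: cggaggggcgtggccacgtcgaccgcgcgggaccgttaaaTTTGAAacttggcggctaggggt

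DNA replication genes fell in part, and here the untreated libraries differed from each other. Of 31 tested, 24 fell (median -1.04), while 10 of the 31 had film ranges below both untreated libraries, where 24.2% of all genes did. The summed level of the list was 4454 CPM in untreated replicate 1 and 2181 CPM in replicate 2, a median log2 difference of -1.43 from replicate 1 to replicate 2, and 1353 to 2002 CPM on films. Mitotic genes went the opposite way between the same libraries, with sums of 3697 and 5135 CPM against 867 to 1622 CPM on films. Without untreated replicate 1, 9 replication genes were lower and 5 higher, without replicate 2 all 31 were lower, and 9 falls held under every setting.

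MCM6, a subunit of the replicative helicase, measured 226 and 60 CPM in untreated cells and from 63.5 through a median of 81.1 to 94.7 CPM on films. Every film library lay above untreated replicate 2 and below replicate 1, and the log2 fold change of -0.83 (SE 0.32, adjusted p = 0.0465) passed in the full test and in 4 of 15 alternatives. PCNA, the sliding clamp of the replication fork, did not pass (log2 fold change -0.74 ± 0.36 SE, adjusted p = 0.111), with 274 and 56.8 CPM in untreated cells and from 85.1 through a median of 95.5 to 125 CPM on films. CCNA2, a cyclin of S phase and mitosis, fell by 2.15 on the log2 scale (adjusted p = 9.17e-06). Replication genes are known targets of E2F factors, and the E2F letters TTCCCGC or TTGGCGC were in 13 of 26 replication promoters (50%), in 4 of 25 mitotic promoters (16%) and in 2170 of 27305 promoters (7.95%). TTTGAA was in 1 of 26 (3.85%). MCM6 and PCNA are printed, on the minus strand at chr2:135876486-135876572 and chr20:5126635-5126721, to show where these letters stand in 2 of the replication genes described; capitals mark the E2F letters, which in PCNA read on the other strand.
MCM6: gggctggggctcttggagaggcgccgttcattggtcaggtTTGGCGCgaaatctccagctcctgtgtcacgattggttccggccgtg
PCNA: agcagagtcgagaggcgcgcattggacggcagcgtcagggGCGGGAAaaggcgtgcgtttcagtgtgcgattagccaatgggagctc

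Translation and energy genes fell. All 44 tested ribosomal protein genes were lower on films (median -1.45), and 43 held under every setting. RPLP0, the large-subunit stalk protein, measured 2351 and 3478 CPM in untreated cells, 1465 and 1050.0 CPM on plates and from 593 through a median of 705 to 841 CPM on films. Plates stood between the other groups, and the log2 fold change was -2.05 (SE 0.15, adjusted p = 6.87e-07). Ribosomal protein genes have many processed pseudogenes, so their counts are uncertain where a read fits several copies. Of 19 ribosome biogenesis genes 17 fell (median -0.73), NPM1, which encodes nucleophosmin, among them (log2 change -1.53 ± 0.13 SE, adjusted p = 2.45e-06). Of 38 nuclear oxidative phosphorylation genes 27 fell (median -0.47, 10 under every setting), and of 13 mitochondrially encoded genes 9 fell, none of them under every setting. Without untreated replicate 1, 3 mitochondrially encoded genes were lower and 1 higher. Of 19 glycolysis genes 14 fell and 1 rose (median -0.62). Among the falls were HK2, a hexokinase (log2 change -2.31 ± 0.21 SE, adjusted p = 3.54e-06), and PDK1, a kinase that inhibits pyruvate dehydrogenase (log2 change -2.32 ± 0.32 SE, adjusted p = 7.62e-05).

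**Figure D4:**
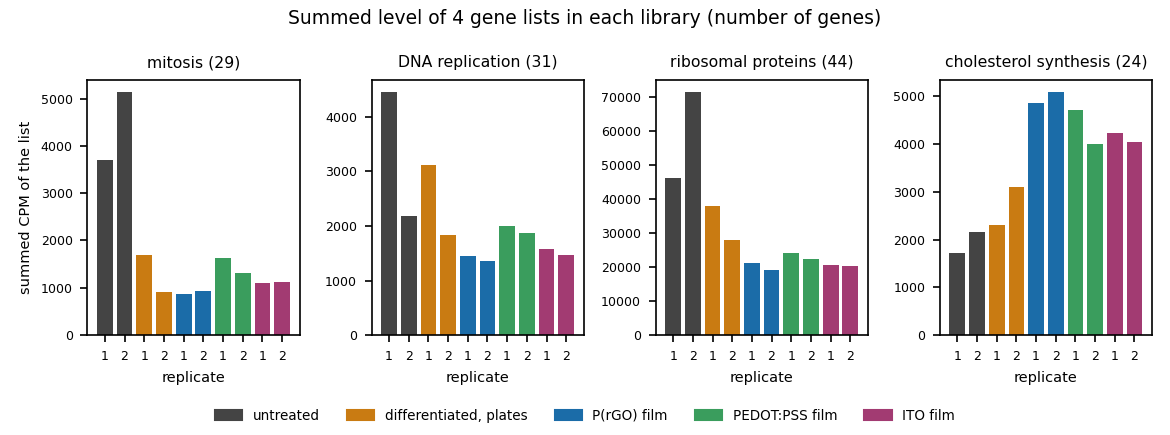
Summed CPM (y axis, from 0) of 4 gene lists in each library (x axis, bars), with the number of genes in each panel title. Mitosis and ribosomal protein sums are lower in every film library than in both untreated libraries, the DNA replication sum of untreated replicate 2 (2181 CPM) lies close to the film range (1353 to 2002 CPM), and cholesterol synthesis sums are higher on films.

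Lipid synthesis rose against this trend. Of 24 tested cholesterol synthesis genes 22 rose and 2 did not pass (median 1.01), and 13 of the rises held under every setting. HMGCS1, which makes HMG-CoA for the sterol pathway, measured 118 and 141 CPM in untreated cells, 179 and 211 CPM on plates and from 310.1 through a median of 404 to 455 CPM on films. The film libraries lay above all plate and untreated libraries, with a log2 fold change of 1.58 (SE 0.17, adjusted p = 1.16e-05). STARD4, a cytosolic sterol carrier, also rose (log2 change 2.29 ± 0.27 SE, adjusted p = 2.32e-05), as did LSS, which closes the sterol rings (log2 change 1.76 ± 0.27 SE, adjusted p = 0.000166). Fatty acid synthesis genes rose in 9 of 13 tested and 4 did not pass (median 0.78, 6 under every setting), with SCD, the stearoyl-CoA desaturase, at 1.20 (SE 0.16, adjusted p = 4.65e-05). Of 14 tested hypoxia genes 7 fell and 7 did not pass, and of 22 stress response genes of the unfolded protein and integrated stress pathways 14 fell and 2 rose.

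Single genes outside these groups moved as far. TXK, a Tec family kinase, had a log2 fold change of 6.53 (SE 0.59, adjusted p = 3.33e-06), ANO3, of the anoctamin family, 5.73 (SE 0.47, adjusted p = 1.63e-06), and the adhesion protein NTM 5.47 (SE 0.77, adjusted p = 8.26e-05). The adjusted p with a weight per group was 0.183 for TXK and 0.41 for NTM. HTRA1, a secreted serine protease, fell from 14.4 and 5.93 CPM to values of 0 to 0.932 CPM on films (log2 change -6.31 ± 0.66 SE, adjusted p = 8.64e-06), and STC2, stanniocalcin 2, from 22.5 and 21.2 CPM to values of 0.233 to 0.766 CPM on films (log2 change -5.63 ± 0.52 SE, adjusted p = 3.67e-06). TXNIP, an inhibitor of thioredoxin that glucose induces, fell from 193 and 621 CPM to values of 7.23 to 11.7 CPM (median 9.27 CPM) on films (log2 change -5.49 ± 0.34 SE, adjusted p = 3.21e-07). CAVIN1, a coat protein of caveolae, fell by 5.32 on the log2 scale (adjusted p = 1.84e-06). For HTRA1, STC2 and TXNIP the film range stood below both untreated libraries.

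Differentiation on plates was compared with untreated cells in the same fit. There 5353 genes (29.6%) passed, 2495 (13.8%) higher and 2858 (15.8%) lower, from 2 libraries in place of 6, and since films and plates share the untreated libraries the 2 sets of calls are not independent. The direct test of films against plates is the test of the difference: 1492 genes (8.25%) passed, of which 807 (4.46%) were higher and 685 (3.79%) lower on films. The coat named for the films and not for the plates, and the film itself, cannot be told apart in it. Without plate replicate 1 the count was 201, of which 198 were shared with the full test, and 173 genes held under all 14 alternatives.

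Several lists differed between films and plates. Cholesterol synthesis was higher than on plates in 14 of 24, with 10 that did not pass (median 0.77), after 7 rises between plates and untreated cells. Immediate early genes were higher than on plates in 10 of 22, with 12 that did not pass (median 0.83), after 6 falls between plates and untreated cells. NRF2 targets, the genes of the oxidative stress response, were higher than on plates in 9 of 24 (median 0.47), with NQO1 at 2.18 (SE 0.31, adjusted p = 0.000818). Synaptic vesicle genes were higher in 7 of 33, and 26 did not pass. Ribosomal protein genes were lower than on plates in 32 of 44 (median -0.63), after 42 falls between plates and untreated cells. Mesenchymal genes were higher than on plates in 4 of 16 and lower in 1 (median 0.80), after 13 falls between plates and untreated cells, and fibroblast markers were higher in 4 of 10 and lower in 1. Whether these markers had a part in the difference was not tested.

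SGK1 (chr6:134169246-134318112, minus strand), a kinase induced by serum and by glucocorticoids, measured 19.5 and 19.2 CPM in untreated cells, 6.41 and 15.8 CPM on plates and from 87.7 through a median of 109 to 162 CPM on films. The plate libraries were the lowest and all film libraries lay above both other groups: the log2 fold change was 2.53 (SE 0.31, adjusted p = 2.62e-05) against untreated cells and 3.32 (SE 0.33, adjusted p = 6.26e-05) against plates. INHBA, which encodes the activin A subunit, measured 5.15 and 3.45 CPM in untreated cells, 6.73 and 14 CPM on plates and from 32.1 through a median of 84.4 to 132 CPM on films (log2 change 3.00 ± 0.38 SE, adjusted p = 0.000438 against plates). LUM, lumican, a proteoglycan of connective tissue, measured 9.11 and 5.26 CPM in untreated cells, 1.85 and 3.00 CPM on plates and from 15.1 through a median of 21 to 28.5 CPM (log2 change 3.12 ± 0.34 SE, adjusted p = 0.000156 against plates). Against untreated cells the adjusted p with a weight per group was 0.0727 for INHBA and 0.0682 for LUM.

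Other genes were lower on films than on plates. EPAS1 (chr2:46293667-46386703, plus strand), which encodes the hypoxia-inducible factor HIF-2α, measured 210.5 and 44.7 CPM in untreated cells, 140.3 and 75.9 CPM on plates and from 3.67 through a median of 7.37 to 10.8 CPM on films. Plates lay within the untreated range and films below it, with log2 fold changes of -4.18 (SE 0.42, adjusted p = 6.3e-06) against untreated cells and -3.94 (SE 0.42, adjusted p = 0.000123) against plates. SPOCK1, a matrix proteoglycan, measured 45.3 and 22.8 CPM, 188 and 93.4 CPM and from 1.28 through a median of 13.1 to 20.7 CPM in the same order, so that plates were the highest group (log2 change -3.75 ± 0.41 SE, adjusted p = 0.000156 for films against plates). Its fall against untreated cells (log2 change -1.71 ± 0.43 SE, adjusted p = 0.0059) did not pass without untreated replicate 1 (adjusted p = 0.174). SMOC1, a matricellular protein, measured 0.888 and 1.51 CPM in untreated cells, 41.9 and 59.6 CPM on plates and from 2.80 through a median of 3.57 to 8.93 CPM on films, where it was lower than on plates (log2 change -3.63 ± 0.37 SE, adjusted p = 7.93e-05). NEUROG2, a proneural factor, measured 30.9 and 17.4 CPM, 16.9 and 11.1 CPM and from 0.355 through a median of 1.97 to 4.22 CPM in that order, with log2 fold changes of -3.84 (SE 0.36, adjusted p = 3.82e-06) against untreated cells and -3.06 (SE 0.36, adjusted p = 0.000303) against plates. SLIT1, an axon repellent, was lower on films than on plates as well (log2 change -2.45 ± 0.16 SE, adjusted p = 3.36e-06).

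**Figure D5:**
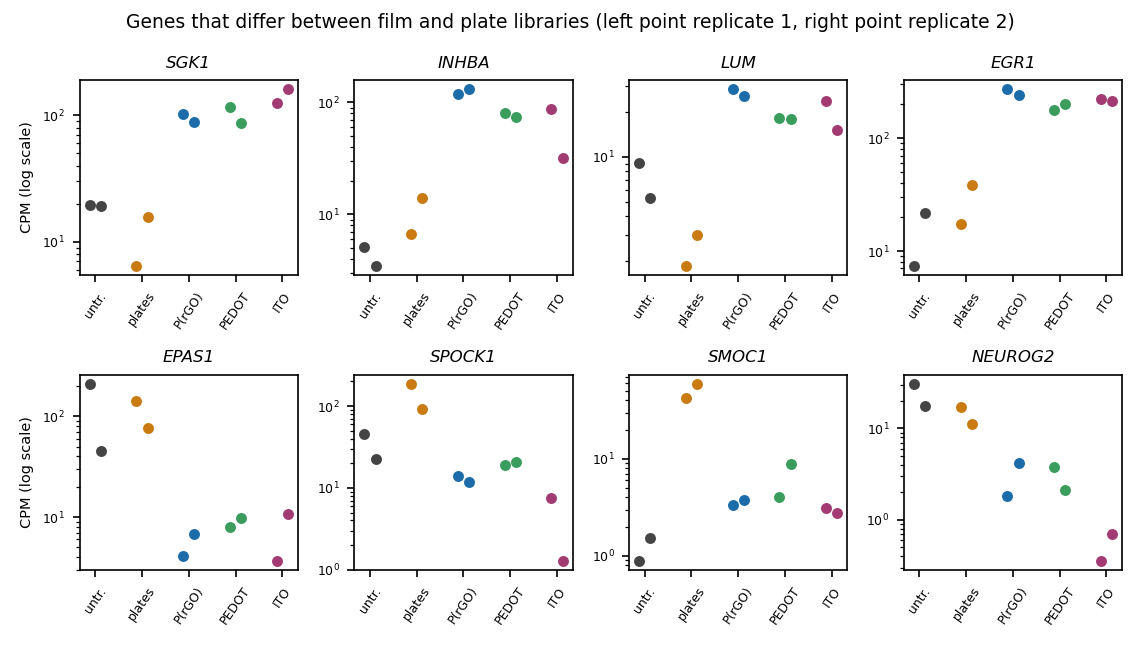
CPM (y axis, log scale) of 8 genes in each library (points) of untreated cells, cells differentiated on plates and cells on the 3 films; each panel is 1 gene. SGK1, INHBA, LUM and EGR1 are higher in all 6 film libraries than in both plate libraries, and EPAS1, SPOCK1, SMOC1 and NEUROG2 are lower.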

How the data were processed

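Polyadenylated RNA of SH-SY5Y cells was sequenced in 16 libraries, 2 for each of 8 groups, and 8 of them formed the comparison. The authors deposited a table of raw read counts per gene with 69222 gene rows, and the submitters' processing notes name STAR, HTSeq and GRCh38.p13; the annotation release and the strand setting of the counting are not given in the sources used here; overlapping and antisense genes are therefore uncertain. Another 5 rows of the table summarise reads on no gene and stayed out. Groups came from sample titles and treatment labels.

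Counts were fitted with edgeR 4.0.16 in R 4.3.3 (TMM scaling, filterByExpr, robust quasi-likelihood), with 1 mean per group over all 16 libraries and 8 residual degrees of freedom. Contrasts were the mean of the 3 films against untreated cells, each film against untreated cells, films against plates and a joint test among films. p-values were Benjamini-Hochberg adjusted over 18081 tested genes, with calls at 0.05, and standard errors came from the fold change and its F statistic. CPM are TMM-scaled. At 15600410 to 20851000 counts per library, intervals and floors of 3 counts cover counting error only. The fit was tested on simulated counts with known changes. These counts gave all groups the same spread for a gene, so they could not test the effect of the wider spread between the untreated libraries. Alternatives were RLE scaling, a replicate block, no low-count filter, only the groups compared, the films as 1 group, DESeq2 1.42.0, limma 3.58.1 with voom weights per group, and each library left out.

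Named genes were the 12 largest rises and 12 largest falls against untreated cells, also called on each film alone, the 6 largest of each against plates, all with at least 10 CPM on 1 side, a coding symbol and no overlap between the groups' libraries, and up to 4 called members per gene list by smallest p, besides any member of a described list. The 59 lists (1142 genes) and the members were chosen with earlier results of these data known. Coordinates are those of GENCODE v29 on GRCh38. Promoters came from RefSeq's GRCh38.p14 table. A few list members counted above are not reported by name. Stimulated films were not analysed here beyond the shared spread.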

Additional observations from a re-analysis of the deposited data

Results flagged for a closer look

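For 19 genes named by the rule, the change from untreated cells differed between films and plates in the direct test of that difference (edgeR, adjusted p of 0.05 or less, 6 film against 2 plate libraries with the same untreated libraries behind both). Values are film minus plate differences on the log2 scale.

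In 1 set, films lay above plates and above untreated cells. SGK1 differed by 3.32, INHBA by 3, LUM by 3.12 and HS6ST3, a heparan sulfate sulfotransferase, by 3.57. HS6ST3 measured 2.01 and 4.42 CPM in untreated cells, 0.489 and 1.5 CPM on plates and 6.06 to 23.2 CPM on films. Its rise against untreated cells did not pass without untreated replicate 1 (adjusted p = 0.0509) or with a weight per group (adjusted p = 0.291). SERTM1 differed by 3.17, KLHDC8A by 3.05, CA10 by 2.55, SCN7A, an atypical sodium channel, by 2.32, NTM by 2.17 and THSD4 by 1.97. Of these 6, CA10 alone still passed as higher on films than in untreated cells with a weight per group. The adjusted p was then 0.0556 for SERTM1, 0.274 for KLHDC8A, 0.141 for SCN7A, 0.41 for NTM and 0.0621 for THSD4. All 6 of these were also higher on plates than in untreated cells by estimate, so that plates stood between the groups. Without plate replicate 1 the difference did not pass for KLHDC8A (adjusted p = 0.0692), SCN7A (adjusted p = 0.101), THSD4 (adjusted p = 0.0563) and NTM (adjusted p = 0.312). CHRM2 differed by 1.78, with films and plates both below untreated cells and plates the lowest, and did not pass without plate replicate 1 (adjusted p = 0.09) or without plate replicate 2 (adjusted p = 0.236).

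In the other set, films lay below plates. EPAS1 differed by -3.94, SPOCK1 by -3.75, SMOC1 by -3.63, FLRT1, a membrane protein of axon guidance and adhesion, by -3.78, SULF2, an enzyme that removes sulfate from heparan sulfate, by -3.07, NEUROG2 by -3.06, TXNIP by -2.99 and RPH3A, a vesicle protein that binds RAB3A, by -2.87. FLRT1 measured 4.85 and 2.12 CPM in untreated cells, 27 and 32.7 CPM on plates and 0.641 to 5.17 CPM on films. Its plate libraries stood apart and its film range overlapped the untreated range. TXNIP measured 193 and 621 CPM in untreated cells, 96.2 and 47.8 CPM on plates and 7.23 to 11.7 CPM on films, with plates again between the other groups. Whether the coat, the film or the 2 plate libraries lie behind these differences cannot be told apart.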

How the results depend on the processing

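Films against untreated cells gave 8118 calls with RLE scaling, 8315 with no low-count filter, 6795 with only the groups compared, 8646 with the films as 1 group, 8082 with DESeq2 and 6697 to 9310 when 1 library was left out, and 2495 with voom weights per group. Changes over 2-fold ranged from 772 without untreated replicate 2 to 2251 without replicate 1. Single films gave, with only the groups compared and with voom weights, 1580 and 2499 calls for P(rGO), 751 and 1958 for PEDOT:PSS and 1365 and 2054 for ITO; leaving out 1 library gave 3455 to 8432, 2472 to 8109 and 3531 to 8348. Films against plates gave 2920 with only the groups compared and 201 to 1271 with 1 library left out; it was 201 without plate replicate 1, 971 without P(rGO) replicate 1, and 990 and 894 without PEDOT:PSS replicates 1 and 2. Among films 85 genes passed with no low-count filter, 7 with only the groups compared, 1 with DESeq2 and 0 to 9 with 1 library left out (9 without ITO replicate 1). Deviations of same-numbered libraries from their group means correlated at -0.09 to -0.01 between untreated cells and films, 0.1 to 0.17 between plates and films and 0.12 to 0.17 between films. The labels name no shared batch and there are 2 numbers, so pairing is not shown for the comparison with untreated cells and is unsettled among the differentiated groups. A replicate block gave 8210 calls for films against untreated cells, 1669 for films against plates and 0 among films. FLRT1, not called against untreated cells (-0.69), turned to 0.027 without untreated replicate 1 and was -1.158 without replicate 2. Except where stated above, the cause was not tested. The spread between the 2 untreated libraries is the widest of any pair, and at this depth genes near the 3-count floor were not resolved.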
